A study of Mus musculus with 8 samples.

Results

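Genes that mark or build the supporting cells of the fetal ovary were followed through a DAZL RNA immunoprecipitation (RIP) of mouse gonads at E14.5. The set held 9 genes, namely Foxl2, Wnt4, Rspo1, Fst, Bmp2, Irx3, Lhx9, Emx2 and Wt1. Members were found on the array by the gene name given for each probe that was not a control, or by an older name. They are 9 of the 19694 genes that could be named on the array, and had 12 probes of 41174 in all. One Lhx9 probe (A_52_P1098851) is listed in the files as 3110009O07Rik, which the RefSeq gene table gives as an older name of Lhx9. It lies between the positions of the other Lhx9 probes.

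RIP uses an antibody to bring down a protein together with the RNA bound to it, and the recovered RNA (IP) is then set against RNA of the same lysate before the antibody was added (input). Here the antibody recognized DAZL, an RNA-binding protein of germ cells. Pooled lots of 50 gonads of strain MCH at E14.5 were lysed for each sex, and no transgene, mutation or treatment is named for any group. The 8 samples formed 4 groups of 2 arrays, which were XX input, XX IP, XY input and XY IP. The input was 5% of the lysate, and labelling started from 50 ng of RNA for an input and 1 ng for an IP. A control-antibody IP was not analysed here, so each IP value stands against its input alone. The labels do not say whether the 2 samples of a group came from separate lots of embryos. The p-values then measure only the spread between these samples, which may be technical. Whole gonads were used, so fewer cells of a type and less RNA per cell cannot be told apart.

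Supporting cells are the somatic cells that enclose the germ cells. In the XX gonad they become pre-granulosa cells, for which the secreted factors WNT4 and RSPO1 and the forkhead transcription factor FOXL2 are best known. RSPO1 binds LGR receptors and keeps the ubiquitin ligases RNF43 and ZNRF3 from removing WNT receptors, so WNT signals through beta-catenin last longer. FST binds and blocks activins, BMP2 is a BMP ligand, and IRX3 is a homeodomain factor. LHX9, EMX2 and WT1 are transcription factors that the gonad needs in both sexes from its earliest stages.

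Signal was expressed on the log2 scale relative to the 75th percentile of each array, which is 0 on this scale. A probe counted as above background when Feature Extraction marked it so on an array. The inputs had 16713 to 20391 such probes and the IPs 6068 to 9468. The lowest signal above background lay between -3.59 and -2.34 on the inputs and between 0.03 and 1.02 on the IPs. A probe at background therefore had a higher log2 value on an IP array than on an input array, and an IP minus input difference between such values is no measure of recovery. On every IP array the 75th percentile itself (6.82 to 13.1 scanner units) lay below the lowest signal above background. On the inputs it lay within detected signal (77.4 to 173 units). Every IP minus input fold given here depends on this scaling. A probe was tested when both arrays of 1 or more groups showed it above background, as was so for 18265 probes. All XX arrays lay on 1 slide and all XY arrays on another, so an IP and its input shared a slide, while in any comparison of the sexes the slide cannot be told apart from the sex.

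Of the 12 member probes, 8 were tested, and they stood for 6 genes, namely Wnt4, Rspo1, Fst, Lhx9, Emx2 and Wt1. These 8 were above background on both XX inputs, and 6 of them were above it on both XY inputs. Only 3 were above background on both XX IPs, and the count was also 3 for the XY IPs. On all 8 arrays there were 3, from Rspo1, Lhx9 and Wt1. The filter let in probes that were detected only where they were high, as Fst and 1 Emx2 probe were in XX, so the tested probes do not stand for all members. Foxl2, Bmp2, Irx3 and the third Lhx9 probe were not tested.

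**Figure D1:**
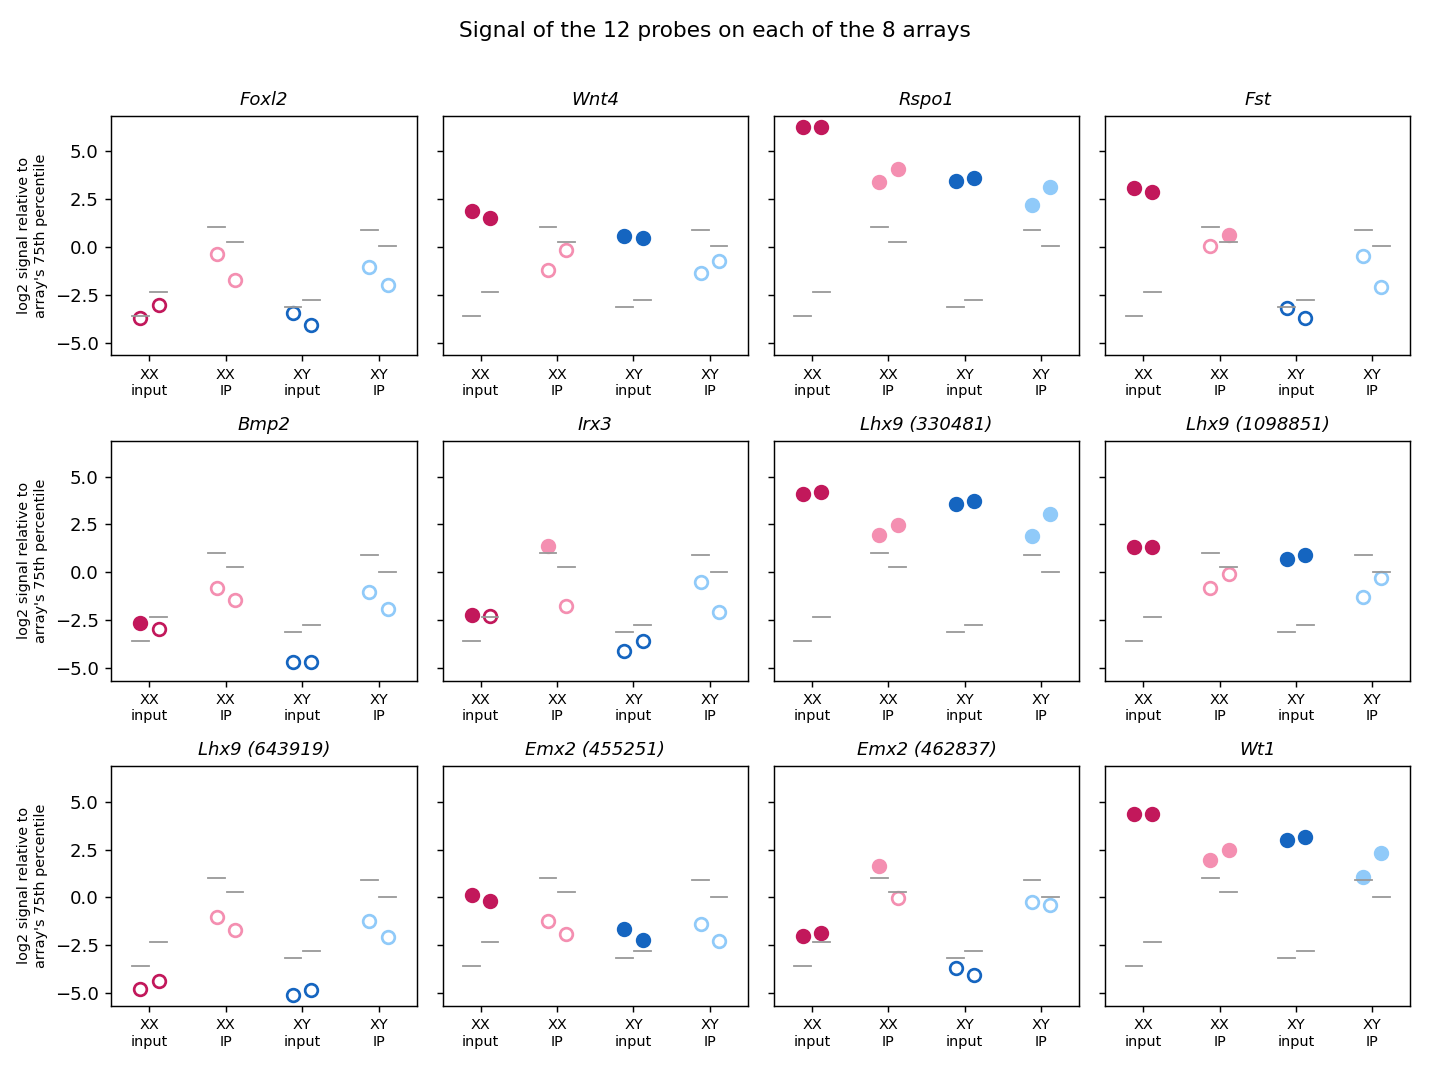
Log2 signal relative to the array's 75th percentile (y axis) of each of the 12 probes on the 2 arrays of XX input, XX IP, XY input and XY IP (x axis). Filled points are above background, open points are not, and each grey line is the lowest signal above background on that array. Rspo1, Lhx9 probe A_51_P330481 and Wt1 are filled on all 8 arrays, and Foxl2 on 0.

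The WNT side of the set was led by Rspo1 (A_51_P142421, mm8 chromosome 4, 124511330 to 124511389). Its log2 signal was 6.29 and 6.30 in the XX inputs, 3.42 and 4.10 in the XX IPs, 3.46 and 3.59 in the XY inputs, and 2.19 and 3.14 in the XY IPs. Both XX inputs lay above every other array. The XX input mean was 6.29 ± 0.0091 and the XY input mean 3.53 ± 0.094 (SD, n = 2), and Rspo1 was 6.80-fold higher in the XX input, a log2 difference of 2.77 (SE 0.44, limma adjusted p = 0.0014), which did not pass with scaling to the 50th percentile (2.79, adjusted p = 0.062). In the XX IP it was 5.79-fold lower than in the input, with a log2 difference of -2.53 (SE 0.44, adjusted p = 0.00085) and no overlap between the groups. In XY the IP minus input difference of -0.87 (SE 0.44, adjusted p = 0.14) did not pass, with a 95% interval from -1.83 to 0.10. With normexp after outlying local backgrounds were replaced it was -2.08 and called lower (adjusted p = 0.0018). The IP effects of the sexes differed by -1.67 for Rspo1, which did not pass either (SE 0.63, adjusted p = 0.19). It passed with quantile normalization (adjusted p = 0.022) and with scaling to the probes detected on all arrays (adjusted p = 0.040).

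Wnt4 (A_51_P130475), the WNT ligand of the set, is placed by the files on mm8 chromosome 4 from 136567851 to 136568419. Its log2 signal was 1.90 and 1.52 in the XX inputs and 0.60 and 0.48 in the XY inputs. On the IPs it was not above background, with -1.22 and -0.15 for the XX pair and -1.37 and -0.75 for the XY pair. In each sex both inputs lay above both IPs. The fitted difference was -2.40 in XX (SE 0.46, adjusted p = 0.0014), which passed the 4-fold limit, and -1.60 in XY (SE 0.46, adjusted p = 0.016), which did not. Since the IP level was at background, Wnt4 can only be said to be at least 2.09-fold lower in the XX IP than in the input, and at least 1.05-fold lower in XY. Without the first XX IP array the XX difference was -1.87 and no longer 4-fold. The XX call also ended with normexp correction in both forms (-1.42) and with a common floor after scaling (-0.69), both under 4-fold, and with quantile normalization (-3.46, adjusted p = 0.068). The XX input was 2.26-fold above the XY input, and this difference of 1.18 did not pass over all probes (SE 0.46, adjusted p = 0.13). When the 4 inputs alone were fitted the same difference passed (adjusted p = 0.0070).

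Wnt4 and Rspo1 both passed the limits for a lower level in the XX IP, and Rspo1 and Emx2 for a higher level in the XX input. Their promoters are shown as the reference sequence of these genes that was at hand. Each window runs 5′ to 3′ on the plus strand over 300 bases around the gene's start, as RefSeq places it on GRCm38.p6, and capitals mark a motif of a factor family that the set itself contains.
Wnt4, chr4:137277385-137277684: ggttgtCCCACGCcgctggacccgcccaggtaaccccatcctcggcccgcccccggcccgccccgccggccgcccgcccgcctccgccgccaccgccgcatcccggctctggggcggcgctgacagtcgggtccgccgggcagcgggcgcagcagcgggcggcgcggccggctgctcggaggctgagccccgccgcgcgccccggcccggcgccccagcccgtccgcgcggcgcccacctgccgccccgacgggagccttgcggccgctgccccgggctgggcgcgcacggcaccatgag
Rspo1, chr4:124986180-124986479: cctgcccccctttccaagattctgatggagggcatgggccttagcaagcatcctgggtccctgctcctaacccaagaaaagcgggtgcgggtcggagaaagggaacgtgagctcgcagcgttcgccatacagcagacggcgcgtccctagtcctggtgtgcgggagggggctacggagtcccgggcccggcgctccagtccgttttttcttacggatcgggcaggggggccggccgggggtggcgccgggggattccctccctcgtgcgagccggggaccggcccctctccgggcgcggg
Emx2, chr19:59458440-59458739: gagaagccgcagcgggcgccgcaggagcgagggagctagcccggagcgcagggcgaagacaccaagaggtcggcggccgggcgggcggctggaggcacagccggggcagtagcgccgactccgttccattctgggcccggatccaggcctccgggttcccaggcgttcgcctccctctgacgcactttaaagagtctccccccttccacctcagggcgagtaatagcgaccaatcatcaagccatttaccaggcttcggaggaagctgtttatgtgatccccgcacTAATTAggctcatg
The motifs searched on both strands were GCGTGGG for the WT1 and EGR zinc fingers, TAATTA for the LIM and EMX homeodomains, and GTAAACA for forkhead factors. Promoters of 6 members were in the table, and those of Fst, Bmp2 and Wt1 were not. The capitals in Wnt4 are the WT1 and EGR motif on the other strand (CCCACGC), which 1 of the 6 held and 5.04% of 32851 promoters of this length held. The capitals in Emx2 are the homeodomain motif, found in 1 of the 6 and in 5.29% of all. The forkhead motif was in 0 of the 6 and in 3.65% of all, and the Rspo1 window held none of the 3 motifs. Wnt4 had 84.3% G and C with 51 CG pairs, Rspo1 69% with 29 and Emx2 64.3% with 26, where the medians of all promoters were 52.7% and 7. A match of letters is a description and shows no binding.

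Fst (A_51_P381821, mm8 chromosome 13, 115575362 to 115576034), the activin antagonist, had the largest input gap between the sexes in the main fit among the members tested. Its log2 signal was 3.11 and 2.86 in the XX inputs, where both arrays were above background, and -3.16 and -3.72 in the XY inputs, where neither was. Fst was at least 61.7-fold higher in the XX input, with a fitted difference of 6.42 (SE 0.53, adjusted p = 1.6e-05). The XX IPs had 0.04 and 0.64, the second of them above background, and the fitted XX difference was -2.64 (SE 0.53, adjusted p = 0.0018). With the first XX IP at the lowest signal above background on that array, the XX IP was 4.44-fold below the input, and with a common floor after scaling the difference was -1.96 and under 4-fold. The XY IPs had -0.48 and -2.08, both at background. In XY the fitted difference of 2.16 (SE 0.53, adjusted p = 0.0072) passed the limits, but all 4 XY arrays were at background and no fold can be given.

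Bmp2 (A_51_P185229) had 10 spots on each array. It was above background on 1 of the 8 arrays, the first XX input, where all of its spots were. Its log2 signal there was -2.63, against -2.96 on the second XX input and -4.67 and -4.68 on the XY inputs. The SD over its spots within an array was 0.21 to 0.62. Both XX inputs lay above both XY inputs, and neither a fold nor a test is given for values at background.

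Among the transcription factors, Foxl2 (A_51_P344790, mm8 chromosome 9, 98765220 to 98765279), the leading marker of pre-granulosa cells, was not above background on any of the 8 arrays. Its log2 signal was -3.73 and -3.04 in the XX inputs and -3.45 and -4.05 in the XY inputs, so the inputs of the sexes overlapped. It was -0.39 and -1.74 in the XX IPs and -1.04 and -1.96 in the XY IPs. In scanner units these were 13.0 and 9.39 in the XX inputs, 10.9 and 4.88 in the XY inputs, and 3.32 to 6.87 in the IPs. Foxl2 was thus not detectable with this probe, which leaves its RNA level in these gonads unmeasured. Irx3 (A_51_P518757) was above background on 2 arrays, the first XX input (-2.22) and the first XX IP (1.35). The second arrays of those groups had -2.27 and -1.75, the XY inputs -4.09 and -3.62, and the XY IPs -0.51 and -2.06. Its XX IPs differed from each other by more than the XX inputs differed from the XY inputs, and it was not tested.

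Wt1 (A_52_P673458, mm8 chromosome 2, 104974110 to 104974169), a zinc finger factor of the early gonad and of supporting cells in both sexes, had 10 spots on every array. Its log2 signal was 4.33 and 4.36 in the XX inputs, 1.93 and 2.50 in the XX IPs, 2.99 and 3.16 in the XY inputs, and 1.05 and 2.33 in the XY IPs. In both sexes the 2 inputs lay above the 2 IPs. The spots of 1 array had an SD of 0.05 to 0.16 on the XX arrays, less than the 0.56 between the XX IPs. After outlier spots were left out, 9 were used on the second XY input and 8 on the second XY IP. On the first XY IP 60% of the spots were above background, with an SD of 0.28. Wt1 was 4.38-fold lower in the XX IP (difference -2.13, SE 0.47, adjusted p = 0.0033) and 2.61-fold lower in the XY IP (difference -1.38, SE 0.47, adjusted p = 0.035). The XX fall passed the 4-fold limit and the XY fall did not, and the difference between them of -0.75 did not pass (SE 0.66, adjusted p = 0.66). Without the first XX IP array the XX difference was -1.85, and without the second XY IP array the XY difference was -2.02, so each crossed the 4-fold limit. With normexp after outlying local backgrounds were replaced the XY difference was -2.05, also past it. The XX input was 2.41-fold above the XY input without passing (difference 1.27, SE 0.47, adjusted p = 0.11), and it passed when the 4 inputs alone were fitted (adjusted p = 0.0027).

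Lhx9, a LIM homeodomain factor that gonads of both sexes need to form, had 3 probes on mm8 chromosome 1. The brightest, A_51_P330481 (140644620 to 140644679), had a log2 signal of 4.11 and 4.22 in the XX inputs and 3.55 and 3.70 in the XY inputs. Its XX IPs had 1.94 and 2.48 and its XY IPs 1.91 and 3.06, all of them below the inputs. The XX IP was 3.87-fold lower (difference -1.95, SE 0.45, adjusted p = 0.0044), just under the 4-fold limit and hence not called. Without the first XX input array it was -2.0 and without the second XX IP array -2.22, both past that limit. It also passed with normexp correction in both forms (-2.92) and quantile normalization (-2.17). In XY the difference was -1.14 (SE 0.45, adjusted p = 0.063), and -2.17 and called lower with normexp after outlying local backgrounds were replaced (adjusted p = 0.00088). The second probe, A_52_P1098851 (140646097 to 140646156), had 1.34 on both XX inputs and 0.71 and 0.91 on the XY inputs, and was at background on all 4 IPs. It was at least 1.61-fold lower in the XX IP and at least 1.26-fold lower in the XY IP (adjusted p = 0.0067 and 0.015). Both probes gave the same input difference of 0.54 (adjusted p = 0.56), with a 95% interval from -0.45 to 1.53 for A_51_P330481. The third probe, A_52_P643919 (listed from 140655100 to 140656333), was not above background on any array, with -5.10 to -4.37 on the inputs.

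Emx2, a homeodomain factor without which the gonad does not form, had 2 probes on mm8 chromosome 19 that disagreed in the IPs. A_52_P455251 (59517902 to 59517961) had a log2 signal of 0.13 and -0.18 in the XX inputs and -1.63 and -2.23 in the XY inputs. It was at background on all 4 IPs, with -1.22 and -1.93 in XX and -1.41 and -2.26 in XY. The XX IP difference of -1.55 passed in p (SE 0.46, adjusted p = 0.015) but gives no bound on a fold, and in XY the difference was 0.10 (adjusted p = 0.88). A_52_P462837 (59517355 to 59517414) had -2.0 and -1.87 in the XX inputs and 1.63 and -0.05 in the XX IPs, the second of which was at background. Its difference of 2.73 in XX passed the limits (SE 0.52, adjusted p = 0.0014), and without the first XX IP array it was 1.89 and under 4-fold, as it was with both forms of normexp (1.15), the common floor (0.30) and the 50th percentile (0.72). In XY it was at background on all 4 arrays, and the fitted 3.55 (adjusted p = 0.00042) is no fold. The XX input was 3.76-fold above the XY input for A_52_P455251 (difference 1.91, SE 0.46, adjusted p = 0.016) and at least 2.04-fold above it for A_52_P462837 (difference 1.94, SE 0.52, adjusted p = 0.029). These input calls ended in 6 of 18 alternatives for A_52_P455251 and in 10 of 18 for A_52_P462837, whose sign turned in 1 more. Neither passed when the first or the second XX input array, or the second XY input array, was left out, and with normexp the values were 0.36 and -0.45. With normexp after outlying local backgrounds were replaced they were 0.75 and 0.18 relative to the median of all probes.

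In the XX IP, 4 of the 8 tested member probes were called lower, the limits being an adjusted p under 0.05 and a 4-fold change. These were Wnt4, Rspo1, Fst and Wt1. Over all 18265 probes 9.91% were called lower. Since all 8 member probes were above background on both XX inputs, the nearer comparison is with the 16443 probes of which that held, and of these 11% were called lower. Among the 5567 probes above background on both XX inputs and both XX IPs, 7.15% were called lower, and of the 3 members there, Rspo1 and Wt1 were. One member probe, A_52_P462837 of Emx2, was called higher, where 14.1% of all probes were. The median difference over the 8 probes was -2.04, beside 0.09 over all tested probes, and both include probes at background on the IPs.

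In the XY IP, 0 of the 8 were called lower, beside 7.68% of all probes, though Wnt4, Lhx9 (A_52_P1098851) and Wt1 were lower at an adjusted p under 0.05 by limma, and 4 probes at an unadjusted p under 0.05. The shares of all probes at these looser limits were not counted. Called higher were 2, Fst and A_52_P462837 of Emx2, beside 10.2% of all probes, and both were at background on every XY array. The median over the 8 probes was -1.0, beside -0.03 over all, and both include probes at background on the IPs.

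**Figure D2:**
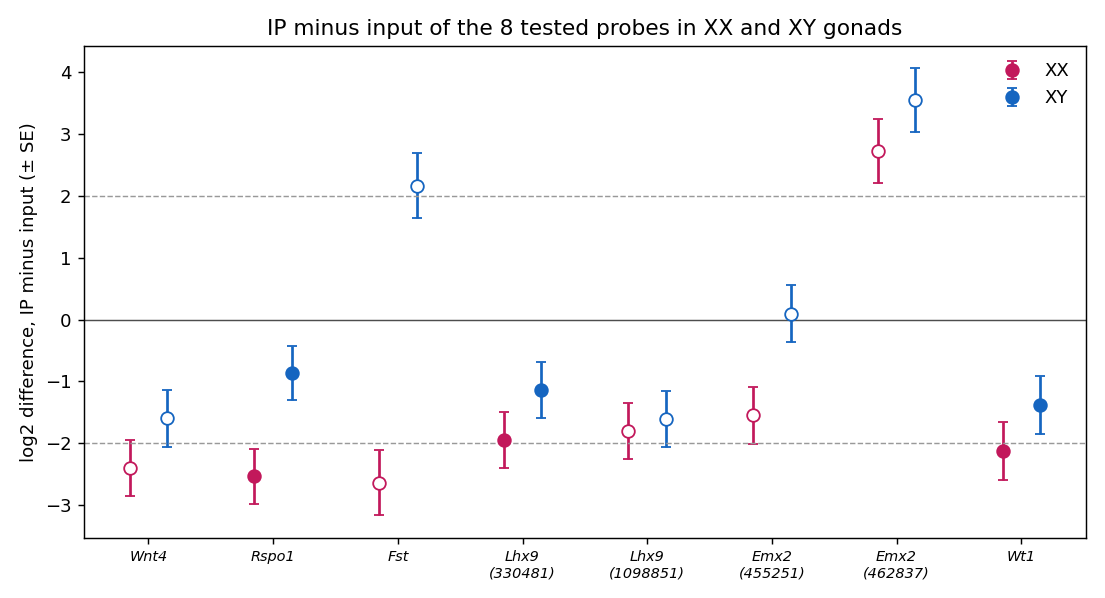
Log2 difference IP minus input (y axis, points with SE) of the 8 tested probes (x axis) in XX and XY, with 2 arrays in each group. Filled points are above background on both inputs and both IPs, open points are not, and dashed lines mark the 4-fold limit. The filled points of Rspo1, Lhx9 and Wt1 run from -2.53 to -0.87, and the points above the 4-fold line are open.

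The difference between the IP effects of the sexes was tested directly and passed for 1 member probe in the direction of a lower value in XX, beside 1.12% of all probes, and for 0 in the other direction, beside 2.18%. At an unadjusted p under 0.05 by limma these numbers were 3 and 0, and the share of all probes at that limit was not counted. The probe was that of Fst, with a fitted -4.80 (SE 0.74, adjusted p = 0.0072). Its XY values were at background on all 4 arrays, so this is no measured difference in recovery, and it did not pass with scaling to the 50th percentile (adjusted p = 0.082) or to the detected probes (0.069), quantile normalization (0.20) or normexp correction (0.46). With normexp after outlying local backgrounds were replaced it passed (-3.35, adjusted p = 0.0098). The median over the 8 probes was -0.82, beside 0.03 over all, and both include probes at background on the IPs. For the 3 genes above background on all 8 arrays the difference was -1.67 (Rspo1), -0.81 (Lhx9) and -0.75 (Wt1), with adjusted p from 0.19 to 0.66.

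In the inputs, 4 of the 8 member probes were higher in XX at an adjusted p under 0.05, beside 5.87% of all probes, and 0 were higher in XY, beside 6.1%. At an unadjusted p under 0.05 by limma 6 were higher in XX and 0 in XY, and the share of all probes at that limit was not counted. The 4 stood for Rspo1, Fst and both Emx2 probes. All 8 were above background on both XX inputs, and of the 16443 probes of which that held 6.5% were higher in XX. Fst and A_52_P462837 of Emx2 were at background on the XY inputs. Among the 15398 probes above background on all 4 inputs 3.81% were higher in XX, and of the 6 member probes there, Rspo1 and A_52_P455251 of Emx2 were. In the main fit the order of the input differences was Fst, Rspo1, Emx2, Wt1, Wnt4 and Lhx9. Fst and Rspo1 differed by more than the sum of their SE, while the 95% intervals of Rspo1 and Emx2 overlapped, as did those of Emx2, Wt1, Wnt4 and Lhx9. Relative to the median of all probes, normexp gave 3.31 for Rspo1 and 3.06 for Fst, with both Emx2 probes below both Lhx9 probes. After outlying local backgrounds were replaced these were 2.55 for Rspo1 and 3.77 for Fst. The median over the 8 probes was 1.59, beside -0.0029 over all. When the 4 inputs alone were fitted all 8 were higher in XX, as were 22.6% of all probes, and 44.1% passed in either direction.

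**Figure D3:**
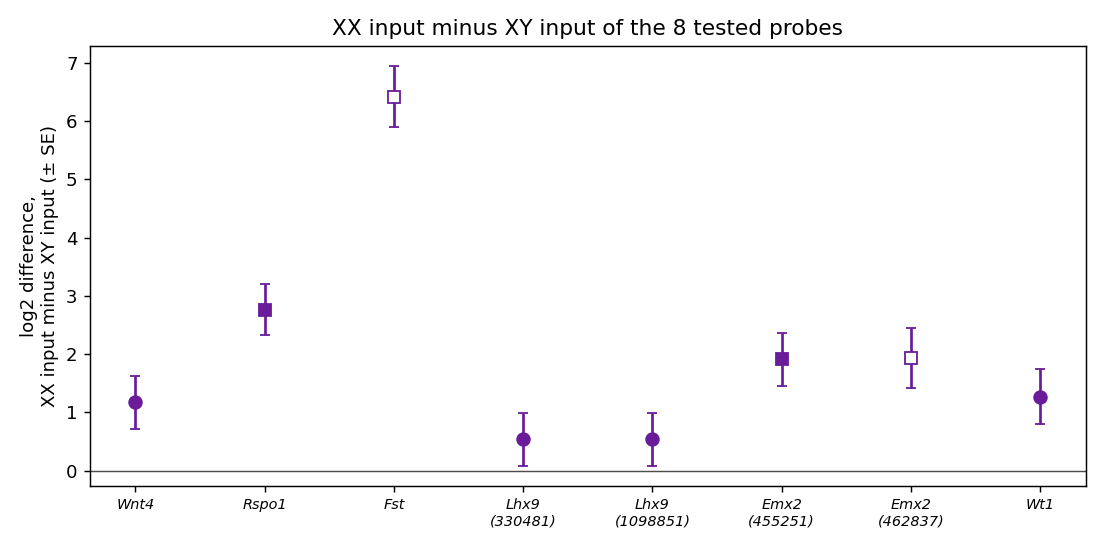
Log2 difference XX input minus XY input (y axis, points with SE, 2 arrays in each group) of the 8 tested probes (x axis). Squares passed at an adjusted p under 0.05 and circles did not, and open symbols are at background on the XY inputs. All 8 points lie above 0, from 0.54 to 6.42.

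Markers of other cells moved with these input values. Of 8 mesonephros and kidney tubule markers, 4 were tested, and 2 were higher in the XX input, Gata3 with a difference of 3.51 (adjusted p = 0.00059) and Cdh16 with 2.29 (adjusted p = 0.0092). Both were at background on the XY inputs. The summed signal of the 4, in multiples of the array's 75th percentile, was 1.60 on both XX inputs and 0.56 and 0.66 on the XY inputs. Wt1, Emx2 and Wnt4 are known to be expressed in the mesonephros or kidney too, and the part of such tissue in their values was not tested. Pax2, Pax8, Wnt9b and Sim1 were not tested, as they were not above background often enough. Of 13 Sertoli cell markers, 11 were tested, and 10 were lower in the XX input, with Cst9 at -8.37, and with Dhh, at background on both XX inputs, at least 183-fold lower. Their summed signal was 7.20 and 8.21 in the XX inputs and 261 and 226 in the XY inputs. Of 12 germ cell markers, 6 were lower in the XX input, with Dnd1 at -4.33 and Dppa3 at -4.19, and 1 was higher, the meiotic gene Sycp3 at 3.44. Their summed signal was 131 and 143 in the XX inputs and 213 and 248 in the XY inputs.

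The wider pathways of the members were counted from lists of genes. The WNT and R-spondin list, which leaves out Wnt4 and Rspo1, had 36 of 45 genes tested. In the inputs 4 were higher in XX. They were Lgr5, a receptor for R-spondins, with a difference of 3.69 (adjusted p = 0.00025), Rnf43, a ligase that clears WNT receptors, with 3.06, the ligand Wnt9a with 2.07 and the WNT inhibitor Nkd1 with 1.85. One, the secreted WNT antagonist Dkk1, was lower in XX with -2.39. In the XX IP 6 of the 36 were called lower and 1 higher, Ror2, whose IP level was at background, and in the XY IP 3 and 1. Over all probes these shares were 9.91% and 14.1% in XX and 7.68% and 10.2% in XY. Of those called lower, Rnf43 and Wnt9a were at background on the XX IPs and Nkd2 on the XY IPs. The ligand Wnt6 had the largest fitted fall of the list in both sexes, by 3.08 in XX and by 2.84 in XY. Genes at background on the IPs give at most a bound, so their falls may be larger. Wls, which carries WNT proteins to the cell surface and was above background on 1 of 2 IP arrays in each sex, fell by 2.25 and by 2.43. Lef1, a transcription factor of the pathway, was higher in the XY IP by 3.94 (adjusted p = 7e-05). The list had a median of 0.03 for XX and 0.24 for XY, beside -2.04 and -1.0 of the member probes. These medians include many probes at background on the IPs, so their contrast is no measure of recovery. In the difference between the sexes 0 of the 36 passed by limma, while at an unadjusted p under 0.05 there were 5 with a lower value in XX and 2 with a higher one. The share of all probes at the unadjusted limit was not counted.

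The BMP and activin list, without Fst and Bmp2, had 24 of 33 genes tested. In the inputs 3 were lower in XX, all of them inhibin and activin subunits, Inhba with -4.58 (adjusted p = 4.2e-05), Inha with -3.07 and Inhbb with -2.10. One, the homeobox gene Msx1, was higher with 1.94. Fst, the binding protein of activins, was higher in the XX input, and these subunits were higher in the XY input. In the XX IP 2 of the 24 were called lower and 3 higher, with Bmp7 at -2.41 (above background on 1 of 2 IPs) and Id4 at 3.08. In the XY IP 2 were called lower and 2 higher, with Id4 at 2.99. These IP counts are near the IP shares of all probes given for the WNT list. Inha, at background on both XY IPs, was at least 10.95-fold lower there than in the input. Those higher include in both sexes Acvr2a, an activin receptor whose IP level was at background. Id4, an inhibitor of DNA binding that BMP signals induce, was above background on all 8 arrays. In the difference between the sexes 1 gene of the list passed, Inhba with a fitted 2.89 (adjusted p = 0.027), and it was at background on both XX IPs, so that its XX side is no measure of recovery.

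Of 9 other female-biased supporting cell genes, all were tested, and 4 were higher in the XX input, beside 5.87% of all probes. These were Irx5 at a fitted 3.93 (at least 3.80-fold), Lgr5 at 3.69, Kitl at 2.61 and Msx1 at 1.94. Lgr5 and Msx1 are also in the WNT and BMP lists above. Among those that did not pass, Runx1 was at -0.13 (limma adjusted p = 0.91). Msx2, Nr0b1, Axin2 and Cdkn1b were at 0.55 to 1.19. Irx5 lies in the same gene cluster as Irx3 and was above background on both XX inputs and neither XY input. The XX IP called 1 of the 9 lower, Lgr5 at -2.04, and the XY IP called 1 higher, Irx5, which was at background on all 4 XY arrays. Of 12 bipotential gonad genes 9 were tested. Among them Lhx2 was higher in the XX input, with 1.69, and Tcf21, at background on both XX IPs, was called lower there, at least 1.96-fold. Among germ cell markers, 7 of 12 were called higher in the IP of XX gonads, beside 14.1% of all probes, and 6 in that of XY gonads, beside 10.2%, and 0 lower in either by limma. One of the 7, Nanos3, was at background on all 4 XX arrays. At an unadjusted p under 0.05, 0 were lower in XX and 1 in XY, and the share of all probes at that limit was not counted. Dazl itself was higher by 2.69 and 2.06. Of 5 erythroid genes tested, 2 were called lower in each sex, with Hba-a1 at -2.46 and -2.24. The summed germ cell signal was 621 and 583 in the XX IPs, and the summed erythroid signal was 245 and 352 in the XX inputs and 34.3 and 94.8 in the XX IPs. The 2 endothelial genes tested, Kdr and Cdh5, were called lower in XX. Both were at background on the XX IPs, which gives at least 3.08-fold for Kdr and at least 1.51-fold for Cdh5. The 4 Leydig genes tested were all lower in the XX input.

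**Figure D4:**
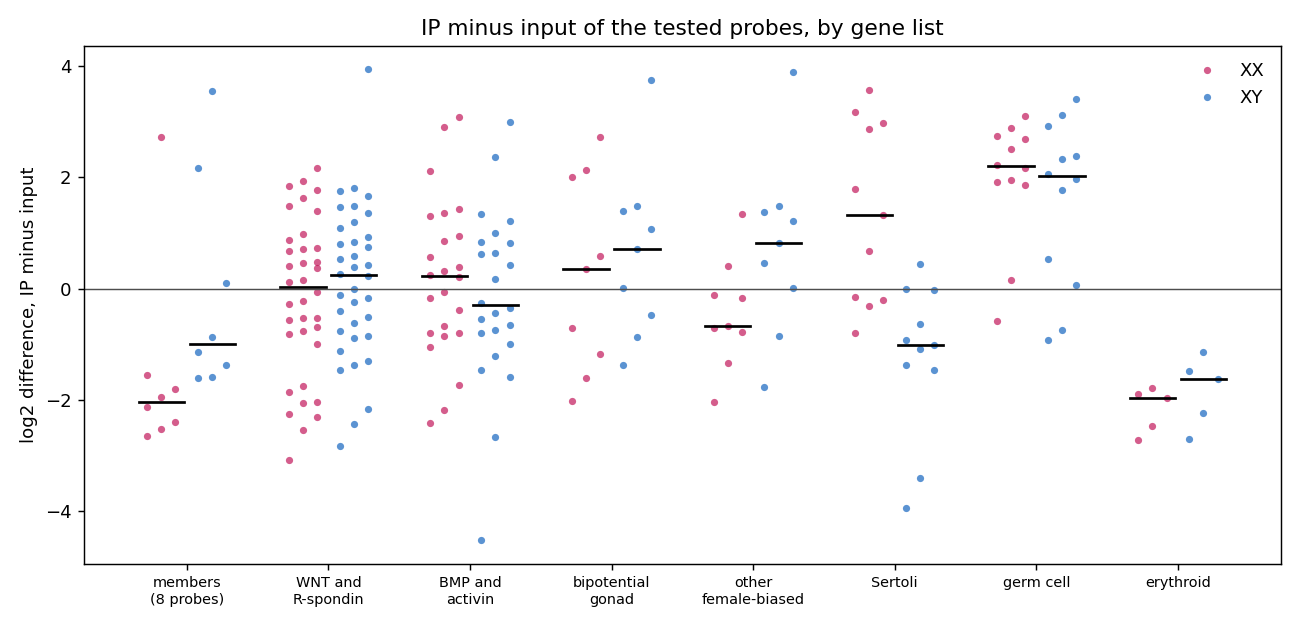
Log2 difference IP minus input (y axis) of the tested probes of the members and of 7 gene lists (x axis), 1 point for each probe, XX beside XY, with a bar at each median. The member medians are -2.04 in XX and -1.0 in XY, and the germ cell medians 2.20 and 2.02. Points include probes at background.

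The genes with the profile most like that of a member were taken over the 8 arrays, from the 14346 tested probes that had a gene name, stood for another gene and were above background on all 4 inputs. Those nearest to Wnt4 were Igfbp2, with a Pearson correlation of 0.998, Krt8 with 0.996 and Mxd4 with 0.991. Those nearest to Wt1 were Ifitm1 (0.995), Ddx1 (0.992) and Lars (0.992). The 8 arrays share the split into inputs and IPs and into slides, so these values describe likeness only. Wnt4 was at background on all 4 IPs, so its correlations rest in part on background values. Igfbp2, a binding protein of insulin-like growth factors, had an IP minus input difference of -3.14 in XX and -2.13 in XY, and Krt8, a keratin of epithelial cells, had -3.15 and -2.46. Foxl2 had no tested probe and was left out.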

How the data were processed

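RNA of XX and XY gonads (input and DAZL IP, 2 arrays each) was measured on 1-colour Agilent arrays. The deposited scanner files give background-subtracted signal intensity, which the headers credit to Feature Extraction 9.5.3.1 as run by the authors, and which are not normalized between arrays. The deposited log2 table was made by the authors by setting values under 1 to 1 and scaling to the 75th percentile (correlation with the values used here at least 0.99998). From the intensities, outlier spots were left out, values under 1 set to 1, log2 spots averaged, and the array's 75th percentile subtracted. Of 41174 probes 73 were left out. limma 3.58.1 in R 4.3.3 fitted 1 mean per group over 8 arrays (residual 4 and prior 7.83 degrees of freedom), two-sided, with Benjamini-Hochberg adjustment over 18265 probes. IP contrasts were called at an adjusted p under 0.05 and 4-fold, the others at the adjusted p alone. Where a group was at background, each array's lowest signal above background, or the probe's own if higher, gave an "at least" fold. The procedure was checked on simulated data.

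Positions are those of the files (mm8). No mm8 annotation or probe sequence was used here, and the place of a probe within its transcript was not determined. Probe names and promoters came from the RefSeq tables of GRCm38.p6. All member probes are named, the most similar genes are the 3 with the highest correlation, and genes of other lists are mostly those with the largest called change. The calls of 1 gene of the bipotential gonad list are not reported here. Members and lists were chosen with earlier results of these data known. Arrays number 2 per group, which limits precision. Replicate numbers were not taken as pairs, and the alternatives are in the closing section.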

Additional observations from a re-analysis of the deposited data

Results flagged for a closer look

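The fitted XX minus XY difference of the IP effects of Fst (A_51_P381821) was -4.80 and passed by limma (SE 0.74, adjusted p = 0.0072). All 4 XY arrays were at background, so the XY side is no measure of recovery and the value is no measured difference between the sexes. It did not pass with normexp correction (-2.88, adjusted p = 0.46), quantile normalization (-3.07, 0.20), scaling to the 50th percentile (-4.95, 0.082) or scaling to the detected probes (-4.90, 0.069), and it passed with normexp after outlying local backgrounds were replaced (-3.35, 0.0098).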

How the results depend on the processing

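Scaling to the 50th percentile moved the median difference of all probes to -1.92 in XX and -1.90 in XY, and relative to it Rspo1 was at -2.62 and -0.83, and Wt1 at -2.22 and -1.35. In the XX IP, the 4 probes called lower became 7 with the 50th percentile, 2 with a common floor after scaling, 2 with only probes above background on every array, and 2 to 6 when 1 array was left out. The 2 came without the first XX IP array, and the 6 without the second. With both forms of normexp the count stayed 4, with Lhx9 A_51_P330481 in place of Wnt4, and with quantile normalization it was 5, with that Lhx9 probe and Emx2 A_52_P455251 called and Wnt4 not. The 1 called higher became 0 with both forms of normexp correction, the 75th percentile of detected probes, the 50th percentile, the common floor and the stricter filter, 4 with no filter, and 0 to 1 when 1 array was left out. In the XY IP, the 0 called lower became 3 with normexp correction after replacing outlying local backgrounds, 5 with the 50th percentile, and 0 to 2 when 1 array was left out. The 2 called higher became 0 with both forms of normexp, 1 with quantile normalization, 1 with the detected probes, 0 with the 50th percentile, 0 with the common floor, 6 with no filter, 0 with the stricter filter, and 1 to 2 when 1 array was left out. The 1 difference between the sexes became 0 with normexp, the 50th percentile and the stricter filter. With quantile normalization and with the detected probes the count stayed 1, but it was Rspo1 (-2.17 and -1.77) and not Fst. The 4 probes higher in the XX input became 2 with normexp, the 50th percentile, no filter and the stricter filter, 8 with only the input arrays, and 2 to 5 when 1 array was left out, 2 of them without either XX input array or the second XY input array. Rspo1 in XX remained called under all 19 alternatives, from -4.54 to -2.20, and Fst in the inputs under all 18 it had, from 1.96 to 6.70. As fitted, signs turned for Emx2 A_52_P455251 in XY, with quantile normalization (-1.97), the detected probes (-0.23) and the 50th percentile (-1.77), and from -0.33 to 0.52 when 1 array was left out. Scaling moves all probes alike, and relative to the median of all probes this value was 0.13 at the 75th as at the 50th percentile and -1.24 with quantile normalization. They turned in the difference between the sexes for Emx2 A_52_P462837 with normexp (0.53), quantile normalization (0.10) and the common floor (0.30), and from -1.66 to 0.019 when 1 array was left out. They also turned there for Lhx9 A_52_P1098851 with quantile normalization (0.73), and from -0.69 to 0.31 when 1 array was left out, and in the inputs for Emx2 A_52_P462837 with normexp (-0.45). With outlying local backgrounds replaced, that Emx2 input value kept its sign, at 0.18 relative to the median of all probes. Over all probes, calls ran from 1797 (common floor) to 25139 (no filter) in XX against 4377, from 822 (normexp) to 23783 (no filter) in XY against 3266, from 0 (normexp) to 1558 (without the second XY IP array) in the difference against 602, and from 598 (normexp) to 8063 (input arrays alone) in the inputs against 2186. Normexp could not be fitted properly on 2 XY arrays, which held 18 and 5 outlying local backgrounds. The labels do not say whether replicate numbers pair the samples. Deviations of same-numbered input and IP arrays correlated at 0.07 in XX and 0.09 in XY, and at 0.03 and 0.14 when limited to 4206 probes that no array showed at background, and the numbers were not taken as pairs. The replicate block left the member counts at 4 and 1 in XX, 0 and 2 in XY, 1 in the difference and 4 in the inputs, and moved the all-probe difference count to 1487. Signal over background limits Foxl2, Bmp2, Irx3 and the IP levels of Wnt4 and Emx2.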
